A study of Homo sapiens with 6 samples.

Results

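The insulin-like growth factor (IGF) axis was described here through 10 genes, which were taken by gene symbol from the 20030 genes of the deposited count table. They are the ligands IGF1 and IGF2, the receptors IGF1R, IGF2R and INSR, the docking proteins IRS1, IRS2 and IRS4, and the binding proteins IGFBP2 and IGFBP4. They had been chosen by earlier results of these same data, namely by the difference in counts between the 2 groups, so that difference is given as a description and was not tested. RNA was sequenced from cells labelled NCI-H929, an established human multiple myeloma cell line. In 3 libraries IGF2BP1 had been knocked down (labelled IGF2BP1-KD, KD hereafter) and 3 libraries were controls (labelled IGF2BP1-NC, NC hereafter). Per the study's methods, cells carried a lentiviral shRNA vector with a U6 promoter, were selected with puromycin as stable transfectants and were grown in RPMI-1640 with fetal bovine serum. The labels do not say whether the 3 libraries of a group came from separate cultures, so that errors and p-values measure the spread between these libraries, which may be technical.

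IGF1 and IGF2 are secreted peptides related to insulin. They bind the receptor tyrosine kinase IGF1R and, with isoform-dependent affinity, the insulin receptor INSR, and the activated receptors phosphorylate the IRS docking proteins, which recruit PI3K and so connect the receptors to AKT. IGF2R has no kinase domain, removes IGF2 from the cell surface and carries mannose 6-phosphate tagged enzymes to lysosomes, and IGF-binding proteins such as IGFBP2 and IGFBP4 hold the ligands in the extracellular space. In multiple myeloma, IGF1 is a known growth and survival factor of the malignant plasma cells. The IGF2BP proteins are RNA-binding proteins that were named after their binding to IGF2 mRNA. IGF2BP1 is also a reader of m6A, a methylated adenosine found in mRNA, and prefers the context GGAC.

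The knockdown was seen in each library. IGF2BP1 had 7550, 6904 and 8055 counts in the NC libraries and 2193, 1980 and 2019 counts in the KD libraries, a log2 fold change of -1.85 (SE 0.065, adjusted p = 4.81e-08, quasi-likelihood test of edgeR). The related IGF2BP3 fell slightly (log2 fold change -0.22, adjusted p = 0.0293 in the same edgeR test), while IGF2BP2 had a log2 fold change of 0.059 (adjusted p = 0.55 in that test). The call of IGF2BP3 was lost without NC library 3, KD library 1 or KD library 3, with an adjusted p of up to 0.107 from edgeR. It was also lost in both alternative fits of limma on FPKM values. The authors list shRNA targets in the IGF2BP1 mRNA, and which of them the sequenced cells carried is not given in the sources used here. They are shown because they are the perturbation itself, and the capitals mark bases 14 to 20, which pair with bases 2 to 8 (the seed) of a fully matched 21-base guide strand.
shRNA 1: cagggaagaatctATGGCAAa
shRNA 2: acagtagagaactGTGAGCAa
A match to the capital letters of shRNA 1 is present in the 3′ UTR of IGF2R, INSR, IRS1 and IRS2, and one to those of shRNA 2 in the 3′ UTR of IGF1R, IGF2R, INSR, IRS4 and IGFBP4. These are 4 and 5 of the 10 genes, where 11.6% and 10.5% of 18641 genes with a coding transcript hold such a match, and the median 3′ UTR of the 10 genes is longer than that of all genes (4333 against 1065 bases). The 3′ UTRs of IGF1 and IGF2 hold neither match.

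The libraries held 16885449 to 18112179 counts each, and the floor of 3 counts that a count of 0 allows came to 0.166 to 0.178 CPM (counts relative to the scaled library total). Of the labelled plasma cell identity, 7 of 13 markers had at most 3 counts in every library, among them TNFRSF17, IRF4 and CD38, and 3 of 13 (SDC1, PRDM1 and XBP1) were above 1 CPM in every library, while all 14 erythroid markers were above 1 CPM in every library. The cells are therefore called here by their label only. The erythroid markers summed to 9012 to 10640 CPM in NC and 9553 to 10450 CPM in KD libraries, and 7 of the 14 were lower in KD cells, while ALAS2, named after its values were seen, had 113 to 205 CPM in NC and 256 to 327 CPM in KD libraries (log2 fold change 0.73, adjusted p = 0.107 from edgeR, called higher by DESeq2). NC library 1 lay farthest from the other libraries of its group (median gap 0.152 on the log2 CPM scale, 277 genes more than 1 log2 unit away). Of 11994 tested genes, 28.2% had an adjusted p under 0.05, with 13.7% higher and 14.5% lower in KD cells, and 3.06% were at least 2-fold higher and 1.67% at least 2-fold lower. For 45.6% of these genes the CPM ranges of NC and KD were apart.

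Of the 10 genes, 8 had enough counts to enter the fit over all genes. For 3 of these the groups did not overlap. Of the 3, IGF1 and IRS1 were lower by at least 2-fold in KD cells, and INSR was higher by less than 2-fold. Since the genes were chosen with this contrast in view, nothing is read from these counts against the shares of all tested genes, such as the 45.6% with ranges apart. IRS1 entered the fit through its NC libraries alone, because none of its KD libraries reached the limit of 0.574 CPM (about 10 counts), and IGF1 reached it in all 3 NC libraries and in 1 KD library. IGF2 reached it in 1 NC and 2 KD libraries. IGFBP2 and IRS4 were too low to be fitted. The median log2 fold change of the 8 genes was -0.10, beside -0.0048 for all tested genes.

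**Figure D1:**
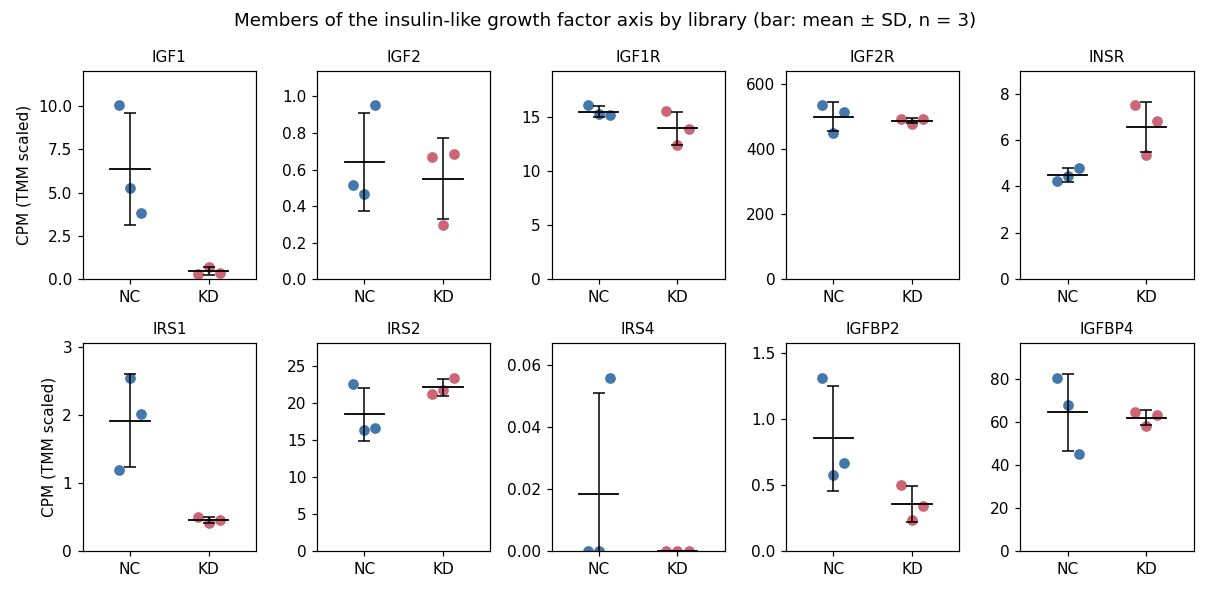
TMM-scaled CPM (y axis, linear from 0, own scale for each gene) of the 10 genes in the 3 NC (blue) and 3 KD (red) libraries, from library 1 on the left to library 3 on the right within a group; the bar and whiskers are the mean ± SD. IGF1, IRS1 and IGFBP2 lie lower and INSR higher in every KD library than in any NC library, while the groups of IGF2, IGF1R, IGF2R, IRS2 and IGFBP4 overlap and IRS4 has 1 count in 1 library.

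Among the ligands, IGF1 showed the largest difference of the 8 fitted genes. IGF1 (NCBI gene 3479, GRCh38 chromosome 12 from 102395874 to 102481744, minus strand) encodes a ligand with high affinity for IGF1R, and its canonical transcript in the GENCODE release 44 annotation has 4 exons. It had 176, 91 and 68 counts in the NC libraries and 5, 12 and 6 counts in the KD libraries. Each KD library was far below each NC library, and NC library 1 was the highest of its group. On the CPM scale the level was 6.37 ± 3.26 (SD, n = 3) against 0.443 ± 0.231 (SD, n = 3), and the fitted log2 fold change was -3.83 (SE 0.478), a 14.3-fold lower level. Within both groups the SD was about as large relative to the mean, at 51.1% and 52.2%. Leaving out 1 library at a time gave log2 fold changes between -4.33 and -3.35, the latter without NC library 1. In RNA of bulk cells, fewer cells that express a gene and less RNA per cell cannot be told apart.

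Stromal markers were read beside IGF1. All 6 listed markers (COL1A1, COL1A2, COL3A1, DCN, LUM and PDGFRB) were tested, and 2 were called lower and 4 were not called, where 14.5% of all tested genes were lower. The markers were listed with earlier results of these data known, so this share is a description. COL1A1 and COL3A1, which encode fibrillar collagens, fell (log2 fold changes -1.49 and -1.51, adjusted p = 0.00344 and 0.000278 from edgeR). The list summed to 33.3 to 54.8 CPM in NC and 10.4 to 21.6 CPM in KD libraries. The uncalled COL1A2, PDGFRB, LUM and DCN had log2 fold changes of -1.57, -1.20, -0.64 and -0.097 (adjusted p = 0.277, 0.0564, 0.458 and 0.877 from edgeR). The median log2 fold change of the 6 markers was -1.35. None of the stromal markers was at 0 in any library, but LUM had 2 counts in KD library 2, under the floor of 3 counts. DCN, encoding the proteoglycan decorin, had 11 to 24 counts in NC and 11 to 25 counts in KD libraries. The part of such transcripts in the IGF1 difference was not tested. On the opposite strand, exons of the non-coding gene HELLPAR cover 92.0% of the bases of the canonical IGF1 exons. The library kit keeps the strand, but the strand setting of the counting is not given in the sources used here, so reads of IGF1 and HELLPAR cannot be told apart with certainty.

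IGF2 (NCBI gene 3481, chromosome 11 from 2129112 to 2158391, minus strand), the ligand that IGF2R clears, was near the limit of detection. Its counts were 9, 8 and 17 in the NC libraries and 12, 5 and 12 in the KD libraries. The groups overlapped, and the log2 fold change of -0.22 was smaller than its SE of 0.464 and ranged from -0.40 to 0.18 when 1 library was left out. Exons of other genes on the same strand, among them the readthrough gene INS-IGF2, share 45.1% of the bases of the canonical IGF2 exons. INS-IGF2 is listed with 0 counts in every library, and how reads on the shared exons were assigned is not given in the sources used here. The FPKM ratio of IGF1 to IGF2 was 5.97 ± 3.99 (SD, n = 3) in NC and 0.567 ± 0.575 (SD, n = 3) in KD cells. It was above 1 in every NC library, and KD library 2, at 1.23, was the KD library in which it also exceeded 1. That KD value rests on 12 counts of IGF1 and 5 counts of IGF2. The ratios are no separate measure of the IGF1 difference.

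Among the receptors, INSR was the one whose libraries separated by group. INSR (NCBI gene 3643, chromosome 19 from 7112255 to 7294414, minus strand) encodes the insulin receptor, and its canonical transcript has 22 exons. It had 74, 77 and 86 counts in the NC libraries and 134, 91 and 120 counts in the KD libraries. KD library 2 was the lowest of its group and came within a few counts of NC library 3. The mean was 4.50 ± 0.295 CPM (SD, n = 3) against 6.57 ± 1.09 CPM (SD, n = 3), with a log2 fold change of 0.55 (SE 0.181). It stayed between 0.44 and 0.67 when 1 library was left out.

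IGF1R (NCBI gene 3480, chromosome 15 from 98648539 to 98964530, plus strand), the main signalling receptor of both ligands, had 282, 263 and 272 counts in the NC libraries and 278, 211 and 244 counts in the KD libraries. Its groups overlapped through KD library 1, and the log2 fold change was -0.15 (SE 0.114). The FPKM ratio of IGF1R to INSR was 2.69, 2.41 and 2.23 in the NC libraries and 1.47, 1.64 and 1.44 in the KD libraries. Every KD ratio was below every NC ratio, and IGF1R stayed the more abundant of the pair per length in all 6 libraries. These ratios are no separate measure of the INSR difference.

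IGF2R (NCBI gene 3482, chromosome 6 from 159969082 to 160113507, plus strand) differed least. It had 9357, 7738 and 9208 counts in the NC libraries and 8793, 8107 and 8621 counts in the KD libraries. The KD values lay within the range of the NC values, and the log2 fold change was -0.036 (SE 0.0703), within -0.10 to 0.016 when 1 library was left out. At this depth a difference of the size seen for IGF1 or IRS1 would be many times the SE of IGF2R or IGF1R.

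Of the docking proteins, IRS1 was the one whose libraries separated by group. IRS1 (NCBI gene 3667, chromosome 2 from 226731312 to 226799820, minus strand) docks to both receptor kinases, and its canonical transcript has 2 exons. It had 21, 44 and 36 counts in the NC libraries and 9, 7 and 8 counts in the KD libraries. All KD libraries lay within 2 counts of each other and below every NC library. The level was 1.92 ± 0.682 CPM (SD, n = 3) against 0.457 ± 0.0451 CPM (SD, n = 3), and the log2 fold change was -2.05 (SE 0.379), a 4.14-fold lower level that ranged from -2.30 to -1.79 on the log2 scale when 1 library was left out.

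IRS2 (NCBI gene 8660, chromosome 13 from 109752695 to 109786583, minus strand) had 396, 281 and 296 counts in the NC libraries and 379, 369 and 410 counts in the KD libraries. NC library 1 lay among the KD libraries, so that the groups overlapped, and the log2 fold change was 0.26 (SE 0.129). Without that library it was 0.43. The FPKM ratio of IRS2 to IRS1 was 13.9 ± 8.41 (SD, n = 3) in NC and 60.8 ± 7.17 (SD, n = 3) in KD cells, and every KD value was above every NC value. The KD ratios rest on 9, 7 and 8 counts of IRS1, all under the limit of 0.574 CPM. They are no separate measure of the IRS1 difference. IRS4 (NCBI gene 8471, on chromosome X from 108719946 to 108736563) had 1 count in NC library 3 and 0 counts in the other libraries, which is under the limit of detection in both groups, and no fold was computed for it.

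Of the binding proteins, IGFBP4 was abundant and IGFBP2 was near the limit of detection. IGFBP4 (NCBI gene 3487, chromosome 17 from 40443450 to 40457725, plus strand), which in most settings restrains IGF action until a protease cleaves it, had 1409, 1169 and 807 counts in the NC libraries and 1155, 987 and 1105 counts in the KD libraries. The KD values lay within the wide NC range, and the log2 fold change was -0.057 (SE 0.208), with a range of -0.26 to 0.13 when 1 library was left out. IGFBP2 (NCBI gene 3485, chromosome 2 from 216632828 to 216664436, plus strand) had 23, 10 and 12 counts in the NC libraries and 9, 4 and 6 counts in the KD libraries. Each KD library was below each NC library, but the lowest and highest values came within 1 count, and the gene was too low to be fitted. Its CPM was 0.854 ± 0.399 (SD, n = 3) against 0.360 ± 0.135 (SD, n = 3), a ratio of 2.37.

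Levels were compared between genes per length, as FPKM. In NC cells IGF2R was highest with 35.4 ± 3.50 FPKM (SD, n = 3), above 90.0% of the listed genes, and IGFBP4 followed with 28.8 ± 8.30 FPKM, whose range overlapped that of IGF2R. A wide step led to IRS2 (2.64 ± 0.548 FPKM) and another to IGF1R (1.15 ± 0.0531 FPKM). Below IGF1R came IGF1 (0.510 ± 0.268 FPKM), INSR (0.473 ± 0.0257 FPKM), IGFBP2 (0.426 ± 0.206 FPKM), IRS1 (0.218 ± 0.0755 FPKM) and IGF2 (0.0996 ± 0.0407 FPKM), and each of these neighbours overlapped the next. In KD cells the upper 4 genes kept their order, with 34.8, 27.8, 3.17 and 1.05 FPKM. INSR was next with 0.696 ± 0.114 FPKM and IGFBP2 followed with 0.180 ± 0.0667 FPKM. IGF2 (0.0860 FPKM), IRS1 (0.0525 FPKM) and IGF1 (0.0356 FPKM) came last before IRS4, and neighbours among these 3 overlapped. IGF1 thus moved from rank 5 of 10 to rank 9. The gene length behind the FPKM of IGF1 is 12516 bases, longer than the 7277 bases of its canonical transcript, which lowers its FPKM relative to a value per canonical transcript.

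**Figure D2:**
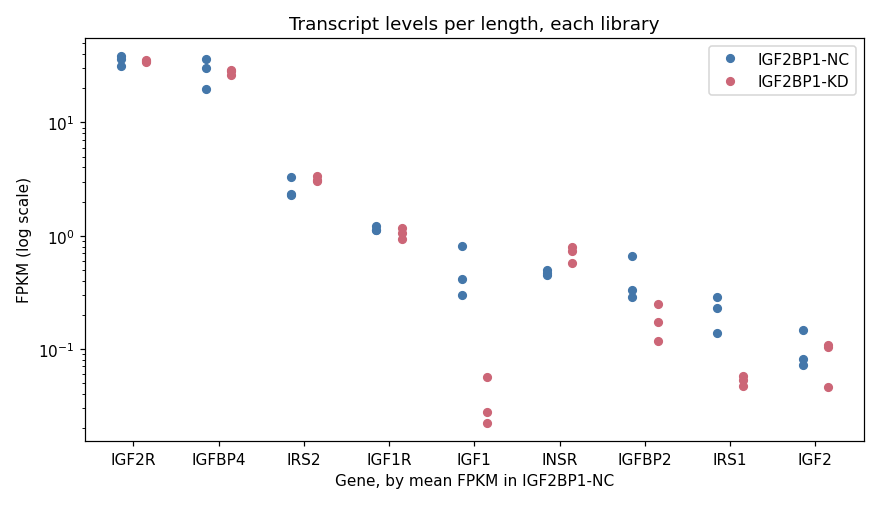
FPKM on a log scale (y axis) of 9 of the 10 genes in each NC (blue) and KD (red) library, ordered by the mean in NC; IRS4, at 0 in 5 of 6 libraries, is left out. IGF2R and IGFBP4 stand near 30 FPKM in both groups, and the red points fall away from the blue ones for IGF1 and IRS1. For IGFBP2 the red points lie lower but close, with a highest KD value of 0.251 and a lowest NC value of 0.286 FPKM. For INSR the red points lie higher.

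The mRNAs of the 10 genes were read for the GGAC context, counted on the canonical transcripts of GENCODE release 44. The median was 3.45 GGAC per 1000 bases for the 10 genes and 3.74 for all 18641 genes. IGF1, which fell most, had 0.962 per 1000 bases, and 2.38% of all genes had fewer. Its mRNA is also low in G and C, at 36.6% against a median of 48.9% over all genes. Its 7277-base mRNA holds 7 GGAC, of which 6 are in the 6636-base 3′ UTR and 1 in the 459-base coding sequence. That of the coding sequence is shown with its neighbouring bases, GGAC in capitals, from chr12:102475706-102475726 (GRCh38, minus strand).
IGF1 coding sequence: ccacggctGGACcggagacgc
IRS1 had 3.38 and IGF2R, whose level differed least, 4.48 GGAC per 1000 bases. INSR had 4.12 and IGF2 3.23. Methylation and binding were not measured in these libraries, and a match is a description of the letters alone.

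**Figure D3:**
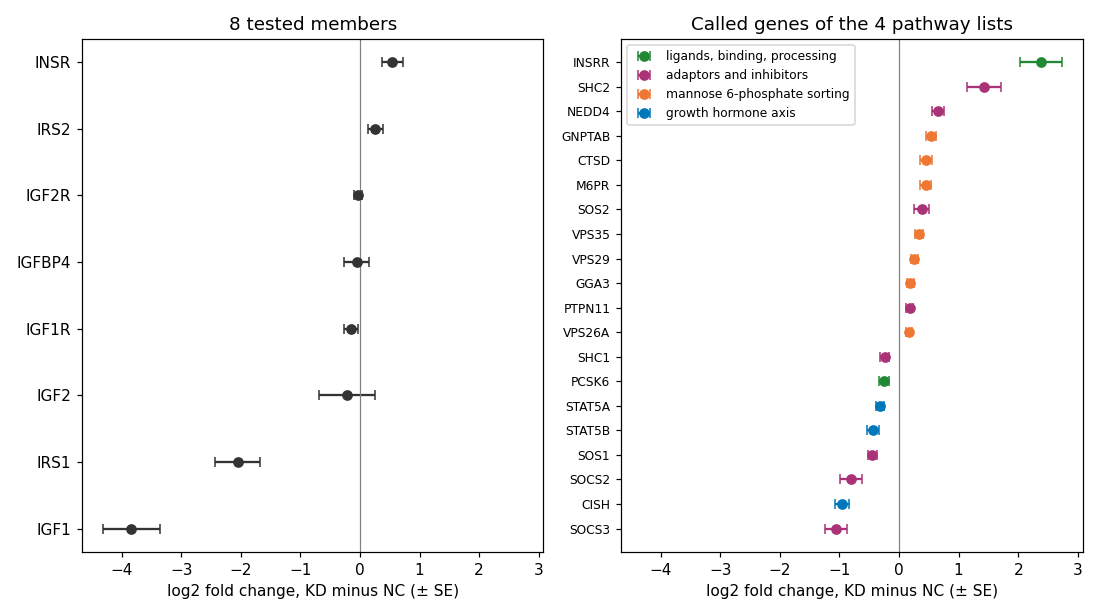
Fitted log2 fold change of KD against NC with its SE (x axis). Left, the 8 fitted genes of the axis, from INSR at 0.55 down to IGF1 at -3.83; right, the 20 genes of the pathway lists with an adjusted p under 0.05, coloured by list, from INSRR at 2.38 down to SOCS3 at -1.06.

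Genes around the axis were tested in the edgeR fit over all genes. Their lists were chosen with earlier results of these data known, so the shares of calls are given as a description. Among 16 other ligands, binding proteins and processing enzymes, 5 could be tested, 1 rose and 1 fell, where 13.7% and 14.5% of all tested genes did. INSRR, an orphan receptor of the insulin receptor family that senses alkaline pH, had 14, 12 and 12 counts in the NC libraries and 59, 43 and 97 counts in the KD libraries. The groups were well apart, with a log2 fold change of 2.38 (SE 0.345, adjusted p = 0.000695 from edgeR), and the call held in each of the 13 alternative fits that could include the gene. PCSK6, a proprotein convertase, fell by 0.25 on the log2 scale (adjusted p = 0.0458 from edgeR) and lost the call in 13 of 15 alternative fits, 5 of them fits that left out 1 library (all but NC library 2), with an adjusted p of up to 0.146. STC2, stanniocalcin 2, which inhibits the IGFBP4 protease PAPPA, had 772 counts in NC library 1 and 142 to 247 counts in the other 5 libraries (log2 fold change -1.24, adjusted p = 0.236 from edgeR); it is named after its values were seen. INS is listed with 0 counts in every library. The median log2 fold change of the 5 genes was -0.017.

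Of 32 receptor-proximal adaptors and inhibitors 28 were tested, of which 4 rose, 4 fell and 20 were not called. The share called, 28.6%, was close to the 28.2% of all tested genes, with a median log2 fold change of -0.052. In DESeq2 4 rose and 6 fell, and at an unadjusted p under 0.05 in edgeR 4 rose and 10 fell. SHC2, an adaptor of the SHC family, rose from 30, 21 and 15 counts to 64, 51 and 63 counts (log2 fold change 1.43, SE 0.282, adjusted p = 0.00389 from edgeR). SHC1, named as its far more abundant counterpart, fell from 2147, 1869 and 2077 counts to 1911, 1667 and 1561 counts. Its log2 fold change was -0.24 (adjusted p = 0.041 from edgeR), a call lost in 9 of 15 alternative fits. NEDD4, a ubiquitin ligase of which IGF1R is a known substrate, rose by 0.66 on the log2 scale (adjusted p = 0.000882 in the same edgeR test). SOCS3 and SOCS2, feedback inhibitors of cytokine and growth hormone receptor signalling, fell. SOCS3 had 165, 135 and 127 counts in the NC libraries and 69, 75 and 60 counts in the KD libraries (log2 fold change -1.06, SE 0.181, adjusted p = 0.00184 from edgeR). The log2 fold change of SOCS2 was -0.81 (adjusted p = 0.0182 from edgeR), and without any 1 of the KD libraries its adjusted p rose above 0.05, to as much as 0.0741. The SOCS2 call was also lost without the filter on low counts. The RAS exchange factors SOS1 and SOS2 differed in opposite directions (SOS2 is named as the counterpart of SOS1). SOS1 had a log2 fold change of -0.45 (adjusted p = 0.00136 from edgeR) and SOS2 one of 0.38 (adjusted p = 0.0434 from edgeR). The SOS2 call was lost without NC library 2 or 3 or any KD library (adjusted p of up to 0.145), and in 8 of 15 alternative fits in all. The number of risen genes was 6 without NC library 1 and 2 without NC library 2 or any KD library; that of fallen genes was 6 without NC library 2 and 2 without KD library 2 or 3.

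**Figure D4:**
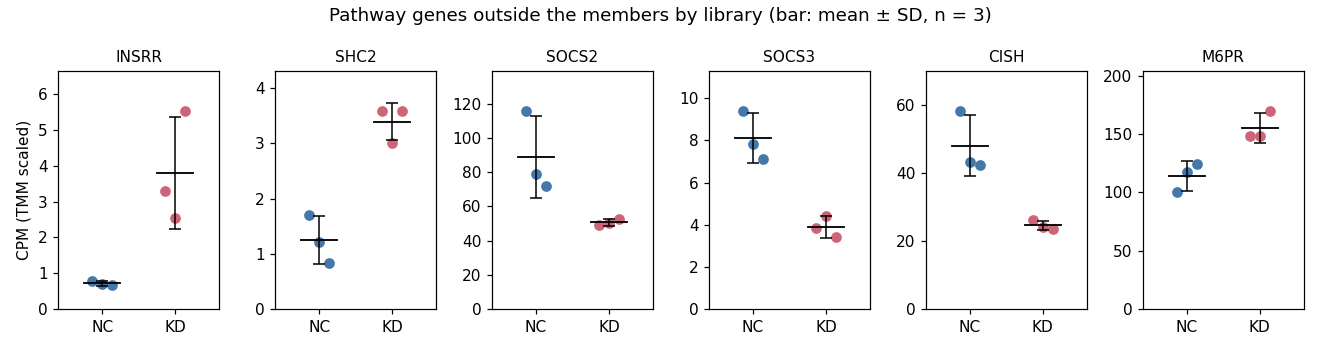
TMM-scaled CPM (y axis, linear from 0, own scale for each gene) of 6 genes around the axis in the 3 NC (blue) and 3 KD (red) libraries, with the mean ± SD. INSRR, SHC2 and M6PR are higher and SOCS2, SOCS3 and CISH lower in every KD library.

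IGF2R shares its sorting route with M6PR, the smaller mannose 6-phosphate receptor, and the 14 listed genes of that route were all tested. Of these, 7 rose and 0 fell by edgeR, where 13.7% of all tested genes rose, and the median log2 fold change was 0.17. This list too was chosen with earlier results of these data known. Its share of calls is therefore a description, and nothing is read from it against that of all genes. M6PR had 1755, 2026 and 2226 counts in the NC libraries and 2651, 2510 and 2983 counts in the KD libraries, so that the groups did not overlap (log2 fold change 0.45, SE 0.088, adjusted p = 0.0042 from edgeR). IGF2R itself, with a log2 fold change of -0.036, did not move with them. GNPTAB, which encodes subunits of the enzyme that starts the mannose 6-phosphate tag, rose by 0.53 on the log2 scale (adjusted p = 0.0015 in the same edgeR test), and CTSD, the lysosomal protease cathepsin D, by 0.46 (adjusted p = 0.00906 in that test). VPS35 and VPS29, subunits of the retromer that returns the receptors from endosomes, had log2 fold changes of 0.34 and 0.26 (adjusted p = 0.00374 and 0.0107 from edgeR). Without KD library 2, 4 of the 14 genes rose, and the adjusted p of VPS29 was 0.0508. In DESeq2 5 rose and 0 fell, and at an unadjusted p under 0.05 in edgeR 1 fell. Of the 7 calls, that of GGA3 was lost without any 1 of the 6 libraries and that of VPS26A without any 1 except NC library 1 (adjusted p of up to 0.152 and 0.158 from edgeR). Both are named for these losses. Over all 15 alternative fits, the GGA3 call was lost in 9 and the VPS26A call in 8.

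Growth hormone is the main inducer of IGF1 in the liver, through its receptor GHR, JAK2 and STAT5. Of 7 genes of that axis 4 were tested, of which 3 fell and 0 rose by edgeR, where 14.5% of all tested genes fell, and the median log2 fold change was -0.38. As the list was chosen with earlier results of these data known and is short, nothing is read from its share against that of all genes. In DESeq2, and in edgeR at an unadjusted p under 0.05, 0 rose as well. The genes not tested, named for their low counts, were GHR (0 to 4 counts in any library), GHRHR (0 to 1) and SSTR2 (0). The tested genes were thus JAK2, STAT5A, STAT5B and CISH alone. JAK2, named for its role, had a log2 fold change of -0.046 (adjusted p = 0.692 from edgeR). CISH, a STAT5-induced feedback inhibitor, fell from 1025, 749 and 757 counts to 469, 412 and 417 counts, with no overlap (log2 fold change -0.96, SE 0.123, adjusted p = 0.000468 from edgeR). STAT5A and STAT5B had log2 fold changes of -0.32 and -0.44 (adjusted p = 0.00555 and 0.0103 in the same edgeR test). These 3 calls held in all 15 alternative fits, while 7 of the 14 erythroid markers were also lower in the KD libraries, with ALAS2 in the opposite direction, and their part in the result was not tested.

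The promoters were read in windows from 250 bases before to 50 bases after the transcription start (RefSeq, GRCh38.p14), which were available for 9 of the 10 genes; for IGF2 none was used. They are shown for IGF1 and IRS1, which fell most in the axis, and for CISH, up to the start. The motifs searched on both strands were TTCNNNGAA, the pattern that STAT5 binds, GGGCGG, the core of the pattern that SP1 binds, TATAAA and CACGTG. A match is present in 7.66%, 45.0%, 11.5% and 7.26% of all 35116 windows. In the CISH promoter (chr3:50611775-50612024, minus strand) capitals mark 4 matches of TTCNNNGAA, which begin 241, 230, 129 and 112 bases before the start, while its 3 matches of GGGCGG are not capitalised. In the IRS1 promoter (chr2:226799821-226800070, minus strand) capitals mark 4 matches of GGGCGG, and its 1 match of CACGTG is not in the stretch shown. The IGF1 window (chr12:102481748-102481997, minus strand), the farther upstream of its pair of windows, holds none of these patterns.
IGF1: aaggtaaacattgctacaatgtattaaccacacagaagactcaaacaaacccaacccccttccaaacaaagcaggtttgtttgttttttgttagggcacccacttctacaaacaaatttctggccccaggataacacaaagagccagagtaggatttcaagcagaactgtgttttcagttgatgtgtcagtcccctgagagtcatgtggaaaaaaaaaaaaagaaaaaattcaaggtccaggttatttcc
IRS1: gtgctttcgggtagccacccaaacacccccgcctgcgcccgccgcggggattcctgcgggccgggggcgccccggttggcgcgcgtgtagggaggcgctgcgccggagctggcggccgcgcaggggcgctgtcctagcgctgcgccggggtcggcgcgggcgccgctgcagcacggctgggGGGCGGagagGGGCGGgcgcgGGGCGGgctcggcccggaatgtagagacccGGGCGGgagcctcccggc
CISH: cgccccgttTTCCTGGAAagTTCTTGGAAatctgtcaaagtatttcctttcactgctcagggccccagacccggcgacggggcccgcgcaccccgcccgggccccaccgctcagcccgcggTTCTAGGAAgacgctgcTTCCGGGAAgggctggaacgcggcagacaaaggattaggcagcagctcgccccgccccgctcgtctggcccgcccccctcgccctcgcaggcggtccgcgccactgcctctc
None of the windows of the axis genes holds TTCNNNGAA, but 7.66% of all windows hold it, a low share. Sequence outside the windows was not searched, so nothing is read from this absence against the CISH window. The IGF1 windows are also poorest in G and C, with 42.3% and 43.7%, where the median of all windows is 58.7% and that of IRS1 has 79.3%. The windows of IGF1R, IGF2R, INSR, IRS2, IRS4 and IGFBP4 all hold GGGCGG.

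By the distance of its 6 log2 CPM values, each centred on the mean of the NC libraries, IGF1 was closest to SCG3, SOX5 and PDE4DIP among 9239 genes whose mean log2 CPM reached 3 (Euclidean distances 1.22, 1.97 and 1.99 over 6 libraries). IGF1 itself had a mean log2 CPM of 0.83, under that limit. The log2 CPM values include a small prior count, which weighs more on the low KD counts of IGF1 than on the other genes. The centred values of IGF1 were -3.93, -2.87 and -3.71 in the KD libraries. SCG3, a protein of secretory granules, had -3.38, -3.21 and -3.22. SOX5, a transcription factor, had -2.24, -2.08 and -3.15, and PDE4DIP, a centrosome and Golgi protein with partial copies in the genome that can split its reads, had -2.55, -2.38 and -2.45. Like IGF1, SOX5 and PDE4DIP were highest in NC library 1. The list follows from the fall they share and describes a likeness in these 6 libraries alone.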

How the data were processed

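RNA of 6 libraries (3 IGF2BP1-NC, 3 IGF2BP1-KD, grouped by their labels) was analysed. The authors prepared stranded mRNA libraries, used Trimmomatic for trimming, HISAT2 for alignment to GRCh38 and HTSeq-count for counting; the deposited counts are raw whole numbers. FPKM values, which the authors calculated with Cufflinks and deposited, follow the counts, a gene length and the library total, and are no separate measurement. Versions, strand setting and annotation release are not given in the sources used here. In the table of FPKM values, 27 symbols had become dates and were matched by row order.

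Counts were scaled by TMM, filtered with filterByExpr and tested with edgeR 4.0.16 in R 4.3.3 (glmQLFit with robust estimation, glmQLFTest, two-sided, Benjamini-Hochberg adjustment over 11994 genes). SE is the log2 fold change divided by the square root of F. The tests were tested on simulated data. Alternatives were DESeq2 1.42.0, library size and upper-quartile scaling, no filter, a minimum of 10 counts in all libraries, voom (limma 3.58.1), a replicate block, limma on log2(FPKM + 1) and log2(FPKM + 0.1) for genes whose mean FPKM reached 1, and each library left out. Floors cover counting error only, while SD and SE include the spread between libraries. Figures were drawn in Python 3.11.15.

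The genes of the axis, the pathway lists and the marker lists were chosen with earlier results of these data known. Named are all 10 genes, the IGF2BP family, the markers, in each pathway list the genes with an adjusted p under 0.05 and a 2-fold change and up to 5 with the largest change among those with an adjusted p under 0.05, and the 3 genes nearest to IGF1 among those whose mean log2 CPM reached 3. Of the other marker lists, 1 of 2 tested B cell markers rose (CD22) and 0 of 1 tested T cell marker and 0 of 2 tested monocyte and neutrophil markers were called by edgeR (0 and 0 at an unadjusted p under 0.05, 0 and 1 by DESeq2). SLAMF7 was the plasma cell marker called, and it rose. Protein sequences were not used here.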

Additional observations from a re-analysis of the deposited data

How the results depend on the processing

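In each alternative that could include them, the log2 fold changes of the 8 fitted genes moved by less than 1 SD of log2 CPM between replicates (pooled over the groups). IGF1 and IRS2 moved by more than their SE without IGF2BP1-NC library 1, to -3.35 and 0.43, and IGF1 also without IGF2BP1-KD library 2, to -4.33. With a library left out, IGF2, IGF2R and IGFBP4, whose groups overlapped, changed sign, to as much as 0.18, 0.016 and 0.13. IGF1, IGF2 and IRS1 were too low for the fits with at least 10 counts in every library and for the FPKM fits, and INSR for the FPKM fits. With each library left out in turn, 1144 to 1929 genes were higher and 1146 to 2062 lower. Of the ligand, binding protein and processing genes, 2 rose with DESeq2, 2 without the filter and 0 in both FPKM fits, and 1 to 2 with a library left out; 0 fell with DESeq2, library size scaling, upper-quartile factors, a minimum of 10 counts, limma-voom, the replicate block and both FPKM fits, 2 without the filter, and 0 to 1 with a library left out. Of the adaptors and inhibitors, 2 rose in both FPKM fits, and 2 to 6 rose and 2 to 6 fell with a library left out. INSRR and SHC2, which rose in the main fit, were too low to enter the FPKM fits. The counts of risen genes in the FPKM fits therefore leave them out. Of the mannose 6-phosphate genes, 4 to 6 rose and 0 to 1 fell with a library left out. The replicate numbers share only a number: deviations of same-numbered libraries correlated by -0.052, 0.036 and -0.11 across genes. With the replicate block, 1413 genes were higher and 1500 lower, and the calls of PCSK6, PTPN11, GGA3 and VPS26A, named after their values were seen, were lost. The causes were not tested. Depth limits IGF2, IRS4 and IGFBP2 in both groups, and IGF1 and IRS1 in IGF2BP1-KD cells.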
